A study of Mus musculus with 6 samples.

Results

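Dopamine is made in the retina by a sparse class of amacrine cells, and it carries the signal of daylight to the rest of the tissue. Tyrosine hydroxylase turns tyrosine into L-DOPA with tetrahydrobiopterin as its cofactor, aromatic L-amino acid decarboxylase turns L-DOPA into dopamine, a vesicular transporter loads dopamine into vesicles, and the plasma membrane dopamine transporter and monoamine oxidase end its action. Receptors of the D1 class raise cyclic AMP in the cells that carry them, and receptors of the D2 class, to which the D4 receptor of photoreceptors belongs, lower it.

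The RNA of 9 genes of this system was followed: Th, Ddc and Gch1 for synthesis, Slc18a2 and Slc6a3 for transport, Maoa for breakdown, and the receptor genes Drd1, Drd2 and Drd4. They were chosen by symbol for their place in dopamine biology, by a rule that uses no measured value although earlier results of these data were known, from 19401 genes listed in the libraries, and all 9 were listed in every library. The mice were 5XFAD, hemizygous for transgenes of mutant human amyloid precursor protein and presenilin 1, which in this line are driven by the neuronal Thy1 promoter, on the B6SJL background, so both groups carried the transgenes. The EFV group received efavirenz, an anti-HIV drug that at low dose activates the cholesterol 24-hydroxylase CYP46A1, in drinking water from 3 to 9 months of age at 0.08 mg per kg of body weight as labelled (the methods of the study give a slightly different dose), and the control group received the vehicle. Each of the 3 control and 3 EFV libraries was a pool of 1 retina plus retinal pigment epithelium (RPE) from each of 5 to 6 mice at 9 months, described as male, and single mice cannot be told apart within a pool. There was no group without the transgenes, and the time of day at which the tissue was taken was not given in the sources used here.

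The libraries held 23455199 to 24590294 counts assigned to genes, and the 9 dopamine genes together took 0.0263% to 0.0291% of them. All 10 amacrine markers, such as Gad1 and Calb2, were measured in every library, with summed FPKM (counts scaled by transcript length and library total, so that levels can be compared between genes) of 497 to 525 in control and 484 to 523 in EFV mice. Control replicate 3 stood apart in lens crystallins and other lens markers, at a summed 1496 FPKM against 14.2 to 80.6 in the other 5 libraries. All 5 lens markers tested were lower in EFV pools at an unadjusted edgeR p of 0.05 or less (median log2 fold change -3.41), none passed adjustment, and the summed levels of the other 2 control libraries, 21.6 and 41.6 FPKM, lay within the range of the EFV libraries. Control replicate 2 held the least RPE RNA, with 22.6 FPKM summed over 8 RPE markers against 43.5 to 56.8 in the other libraries. No marker of cones, bipolar, horizontal, ganglion or Müller cells, microglia, endothelium, blood or sympathetic nerve and iris was at an unadjusted edgeR p of 0.05 or less between the groups.

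Receptor RNA was abundant and the RNA of dopamine synthesis was scarce. Drd4, which encodes the D4 receptor, had by far the highest level, at a mean of 136 FPKM ± 3.01 (SD, n = 3) in control and 127 ± 7.10 in EFV mice, above 98.1% of the 17705 genes with an Entrez identifier. Drd2 followed at 21.6 ± 2.03 and 19.3 ± 0.360 FPKM, and Drd1 at 13.1 ± 0.778 and 12.6 ± 0.580. The levels of these 3 receptor genes did not overlap with each other in any library.

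The genes of dopamine handling were far below the receptors. Maoa was at 3.78 ± 0.316 FPKM in control and 3.63 ± 0.349 in EFV mice, Slc18a2 at 3.28 ± 0.396 and 3.71 ± 0.186, and Th at 2.85 ± 0.130 and 2.65 ± 0.518. Maoa exceeded Slc18a2 in 4 of 6 libraries and their ranges overlapped, so these neighbours did not differ beyond their spread. Slc18a2 exceeded Th in 6 of 6 libraries, by at most 1.65 times, although the ranges of the genes over all libraries overlapped. Below Th came a gap, since Th stood 6.48 to 14.7 times above Ddc within the libraries.

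The 3 genes of lowest level were Ddc at 0.330 ± 0.125 FPKM in control and 0.367 ± 0.115 in EFV mice, Gch1 at 0.210 ± 0.0656 and 0.263 ± 0.0252, and Slc6a3 at 0.0400 ± 0.0265 and 0.0367 ± 0.0153. Ddc exceeded Gch1 in 5 of 6 libraries with overlapping ranges, so their order was not settled. Gch1 exceeded Slc6a3 in all 6, without overlap.

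**Figure D1:**
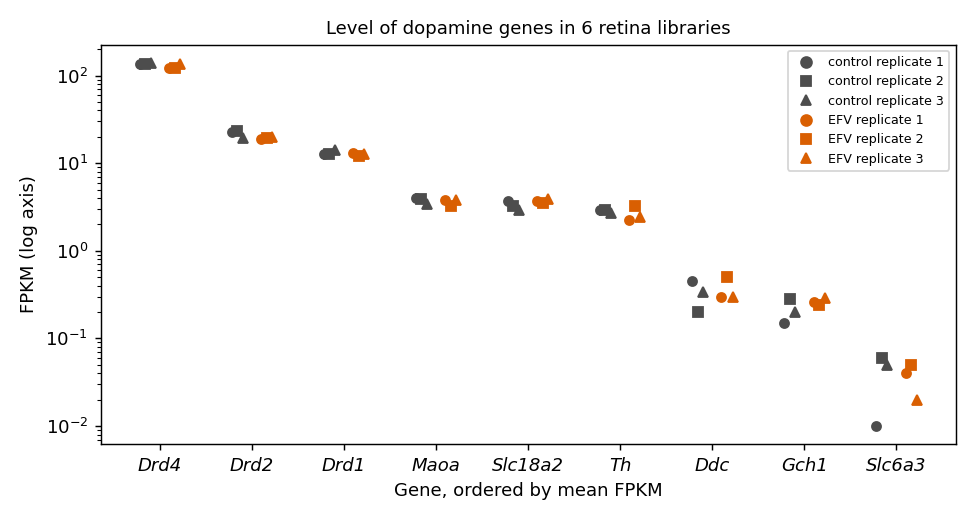
FPKM (log axis) of the 9 dopamine genes in each of the 6 libraries, ordered by mean level, with control pools in grey and EFV pools in orange and a marker shape for each replicate number. Drd4 lies above 122 FPKM in every library, Slc6a3 at 0.06 FPKM or less, and the control and EFV points of each gene share the same range of the axis.

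No gene of the 9 passed the test of EFV-treated against control mice with adjustment over all genes. The 2 with the smallest p were the receptor genes Drd4 and Drd2, at 0.921 and 0.883 times the control level in EFV mice. Of the 9 genes 8 had enough counts to be tested (at least 10 in at least 3 libraries), 3 with a higher and 5 with a lower fitted level in EFV pools, beside 49.4% of all 15537 tested genes with a lower one. None of the 8 passed an adjusted p of 0.05 (edgeR quasi-likelihood test, Benjamini-Hochberg method), and neither did any of the 15537 genes (0.0%), of which 473 were at an unadjusted p of 0.05 or less (3.04%). The study itself used limits without adjustment, a p of 0.05 together with a small fold change, and at these limits Drd4 and Drd2 were called lower with edgeR and none of the 8 was called higher, beside 1.54% of all tested genes called lower, 1.47% called higher and 3.01% in either direction. By p, Drd4 and Drd2 ranked 334 and 383 among the 15537 genes.

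The median log2 fold change, EFV over control, was -0.08 over the 8 genes and 0.00 over all tested genes. DESeq2 called none of the 8 after adjustment (0.0709% of all genes, 11 in number) and called Drd4 at the limits of the study, beside 0.934% of all genes lower and 1.73% in either direction. limma on log2(FPKM + 0.1) called none of them after adjustment (0.0% of all genes) or at the limits (3.15%). A Poisson model, in which counting is the only source of error, called Drd4 and Drd2 after adjustment, beside 13.1% of all genes, and at the limits it called both lower and Slc18a2 higher, beside 7.54% of all genes lower and 14.8% in either direction. An exact permutation test on the log2 CPM of each gene (counts scaled by the library total and the TMM factor of edgeR) gave a two-sided p = 0.10 for Drd4, the smallest that 3 against 3 libraries allow. The same exact test gave 0.20 for Drd2 and 0.30 to 0.90 for the other 7 genes.

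**Figure D2:**
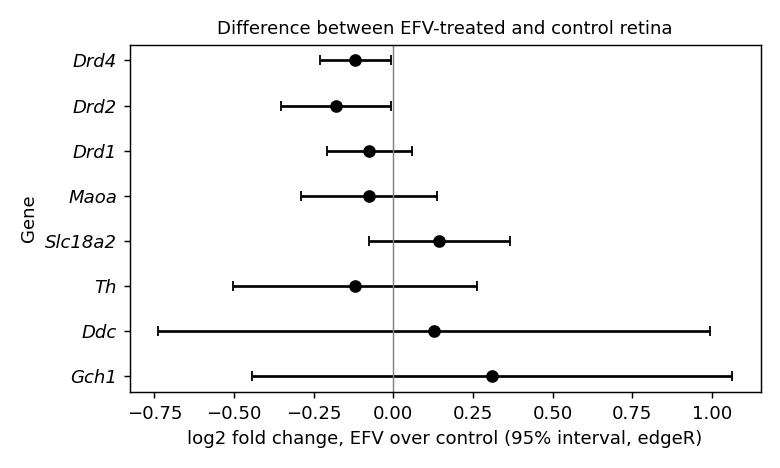
Log2 fold change, EFV over control, of the 8 tested dopamine genes from edgeR (points) with 95% intervals (bars), in order of mean level. The intervals of Drd4 and Drd2 end just below 0, those of the other 6 genes span 0, and those of Ddc and Gch1 are the widest.

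Th, the rate-limiting enzyme of dopamine synthesis and the marker of dopaminergic amacrine cells, lies on chromosome 7 (GRCm38, the build mm10 of the files, 142892779 to 142899995, minus strand, 13 exons). It was at 2.92, 2.93 and 2.70 FPKM in control replicates 1 to 3 and at 2.26, 3.24 and 2.46 in EFV replicates 1 to 3. EFV replicate 2 was the highest of all 6 libraries and the other EFV libraries were the lowest, so the EFV values lay on both sides of the control values. The log2 fold change was -0.12 (SE 0.17, 95% interval -0.50 to 0.26, edgeR with Benjamini-Hochberg adjustment, adjusted p = 0.999). At 94 to 134 counts per library, the spread of Th between EFV pools had a coefficient of variation of 20.5%, against 9.55% from counting error alone, and in control pools it was 4.80% against 9.25%.

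Slc18a2 encodes the vesicular monoamine transporter VMAT2, which fills vesicles in dopamine neurons and in other monoamine cells, and lies on chromosome 19 (59260878 to 59296012, plus strand, 16 exons). It was at 3.69, 3.24 and 2.90 FPKM in control and at 3.73, 3.51 and 3.88 in EFV pools. The EFV libraries lay close together and control replicate 1 lay among them, so the groups overlapped. The log2 fold change was 0.14 (SE 0.10, 95% interval -0.08 to 0.37, edgeR adjusted p = 0.999). Without control replicate 1 the log2 fold change was 0.24, past the limits of the study but not the adjusted threshold (edgeR adjusted p = 0.999), and without control replicate 3 it was 0.07. The row of Slc18a2 includes 1 transcript that the authors assembled as new. The exons of Slc18a2 overlap those of an antisense gene, Gm29261, and the strandedness of the libraries was not given in the sources used here.

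The promoters of Th and Slc18a2 share a full cyclic AMP response element (CRE), the 8 letters TGACGTCA that read the same on both strands. Both sites are printed with their flanks because these were the only promoters of the 9 genes with the motif in the RefSeq windows (GRCm38.p6) of 250 bases before to 50 after the start, of which 1.79% hold it among 32851 windows. The capitals mark the CRE, which begins at position -45 of Th and at position -4 of Slc18a2, counted from the RefSeq start:
Th (chr7:142900022-142900051, minus strand): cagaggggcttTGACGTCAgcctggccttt
Slc18a2 (chr19:59260863-59260892, plus strand): agcgctgtccgTGACGTCAgagccggactg
The match is a description of the letters and not of a bound site. The fitted log2 fold changes of the genes had opposite signs, neither of them called, and the Pearson correlation of their log2 CPM over the 6 libraries, which share pools and depth, was -0.27. The ratio of Th to Slc18a2 FPKM was 0.791, 0.904 and 0.931 in control and 0.606, 0.923 and 0.634 in EFV pools, and the groups overlapped (exact permutation test, two-sided p = 0.30, adjusted p = 0.70 over 7 ratios). This ratio was chosen after the values were seen, and 3 against 3 libraries cannot give a p below 0.10.

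Ddc, Gch1 and Slc6a3 were at the edge of what these libraries can measure. Ddc, the decarboxylase, lies on chromosome 11 (11814101 to 11898144, minus strand) and was counted 21, 9 and 16 times in control and 14, 23 and 14 times in EFV pools. The lowest and the second highest of these counts were both from control libraries, and its log2 fold change of 0.13 carried an SE of 0.38 (95% interval -0.74 to 0.99, edgeR adjusted p = 0.999). Gch1, GTP cyclohydrolase 1, which sets the rate of tetrahydrobiopterin synthesis, lies on chromosome 14 (47153895 to 47189413, minus strand) and was counted 10, 18 and 13 times in control and 17, 16 and 19 times in EFV pools. Its groups overlapped through control replicate 2, with a log2 fold change of 0.31 (SE 0.33, 95% interval -0.44 to 1.06, edgeR adjusted p = 0.999). For both genes the intervals include a rise and a decrease, so a change of moderate size was not detectable at this depth.

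Slc6a3, the plasma membrane dopamine transporter, lies on chromosome 13 (73536128 to 73578672, plus strand, 15 exons). It was counted 1, 5 and 4 times in control and 3, 4 and 2 times in EFV pools, under the minimum of 10 counts in 3 libraries needed for the test. Summed over a group this is 10 counts in control, or 0.138 CPM of the summed totals (exact Poisson 95% interval 0.0663 to 0.254), and 9 counts in EFV mice, or 0.123 CPM (0.0564 to 0.234). The intervals, which cover counting error only, overlap almost wholly. Its highest level, 0.06 FPKM, was far below the lowest of Th, 2.26 FPKM, and both genes are known as markers of dopamine neurons.

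Drd4 encodes the D4 receptor, known in the retina for its expression in photoreceptors, where it lowers cyclic AMP in the light. It lies on chromosome 7 (141291974 to 141296464, plus strand, 4 exons), 1.6 Mb from the start of Th. Its levels were 134, 135 and 139.6 FPKM in control and 123, 122 and 135 FPKM in EFV pools. On this scale EFV replicate 3 reached the middle of the control range. In CPM scaled by the TMM method of edgeR, the levels were 174.8, 179.9 and 183 in control and 160.2, 161 and 174.5 in EFV pools, and on this scale the groups did not overlap, by a gap that was narrow between control replicate 1 and EFV replicate 3. The same held, with EFV lower, for 4.16% of all tested genes.

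The log2 fold change of Drd4 was -0.12 (SE 0.05, 95% interval -0.23 to -0.01), that is 0.921 times the control level with an interval of 0.852 to 0.995. It passed the limits of the study and not the adjusted threshold (edgeR, Benjamini-Hochberg method, adjusted p = 0.999). Drd4 is on the list of changed genes that the study drew from these same libraries, so that list is not independent evidence for it, and Drd2 is not on that list. The call at the limits was lost without control replicate 3, the library rich in lens RNA, where the log2 fold change was -0.10. It was also lost without control replicate 2 (-0.12), EFV replicate 1 (-0.10) or EFV replicate 2 (-0.10), and it held without control replicate 1 (-0.14) and without EFV replicate 3 (-0.16).

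Rods are the bulk of the retina, and in bulk tissue fewer cells of a type and less RNA per cell cannot be told apart. The summed level of 7 rod markers was 24804 to 25551 FPKM in control and 23816 to 25286 FPKM in EFV pools, with 4 of 7 lower and 3 higher in EFV mice and none at an unadjusted edgeR p of 0.05. With the mean log2 CPM of the rod markers as a covariate, the log2 fold change of Drd4 was -0.13, still past the limits of the study (edgeR adjusted p = 0.9997). This fit was added after the data had been seen, and 442 of the 15537 tested genes passed the limits in it.

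The 206 bases before the first annotated base of Drd4 are printed because Drd4 had the highest level of the 9 genes. This first annotated base lies upstream of the RefSeq promoter start. Positions are counted from the promoter start and not from the end of the printed bases. Capitals mark the GC box letters GGGCGG, searched on both strands, which lie at positions -82, -77 and -56 from the RefSeq promoter start, the first pair overlapping by a base:
Drd4 (chr7:141291768-141291973, plus strand): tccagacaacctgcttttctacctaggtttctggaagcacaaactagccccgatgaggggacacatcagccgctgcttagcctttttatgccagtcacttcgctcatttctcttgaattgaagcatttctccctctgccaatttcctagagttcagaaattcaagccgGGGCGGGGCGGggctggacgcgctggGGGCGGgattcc
A GC box was present in the windows of 8 of the 9 genes, Ddc being the exception, and in 35.7% of all windows. The letters TAATCC, a core of the sites of the photoreceptor factors CRX and OTX2, were in none of the windows of the 9 genes and in 7.06% of all windows, which says only that these letters are not in this stretch.

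Drd2 encodes the D2 receptor, known in the retina as the autoreceptor of dopaminergic amacrine cells, and lies on chromosome 9 (49340360 to 49408177, plus strand, 8 exons). Its levels were 22.5, 23.1 and 19.3 FPKM in control and 18.98, 19.3 and 19.7 FPKM in EFV pools. The EFV pools were tightly grouped, with control replicates 1 and 2 above them and control replicate 3 at the same level as EFV replicate 2. The coefficient of variation of scaled CPM was 9.77% in control and 1.74% in EFV pools, against 3.58% and 3.78% from counting error.

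The log2 fold change of Drd2 was -0.18 (SE 0.08, 95% interval -0.35 to -0.01), or 0.883 times the control level with an interval of 0.783 to 0.995. It passed the limits of the study and not the adjusted threshold (edgeR, Benjamini-Hochberg method, adjusted p = 0.999). Without control replicate 3 the log2 fold change was -0.26 and the call at the limits held. Leaving out any of the other 5 libraries ended that call, at log2 fold changes from -0.19 to -0.12.

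The pools also held pigment epithelium, and the fitted log2 fold changes of all 7 RPE markers tested were above 0, at a median of 0.53, whereas those of Drd2 and Drd4 were below 0. The summed FPKM of the RPE markers overlapped between the groups, at 22.6 to 48.3 in control and 43.5 to 56.8 in EFV pools. Of the 7 markers, 2 were at an unadjusted edgeR p of 0.05 or less, Lrat at 0.65 and Rpe65 at 0.58, beside 3.04% of all tested genes in either direction, and neither passed adjustment (adjusted p = 0.999 for both). None of the 8 RPE markers was at 0 in all libraries. With the RPE markers as a covariate the log2 fold change was -0.11 (SE 0.10) for Drd2 and -0.14 (SE 0.07) for Drd4. Without the covariate it was -0.18 (SE 0.08) for Drd2 and -0.12 (SE 0.05) for Drd4. Neither gene passed the limits of the study with the covariate, beside 425 of the 15537 tested genes that did. With the amacrine markers as a covariate the log2 fold change was -0.20 for Drd2, past the limits, and -0.11 for Drd4, not past them. In that fit 659 of the 15537 tested genes passed the limits.

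Drd1, the D1 receptor gene, known in horizontal, bipolar and ganglion cells, lies on chromosome 13 (54051183 to 54055658, minus strand, 2 exons). Its scaled CPM was 43.7, 44.8 and 48.8 in control and 45.2, 41.9 and 43.3 in EFV pools. Control replicate 3 was the highest and EFV replicate 2 the lowest, with the other 4 libraries in between and mixed. The log2 fold change was -0.08 (SE 0.06, 95% interval -0.21 to 0.06, edgeR adjusted p = 0.999).

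Drd4 made up 79.0% to 80.7% of the summed FPKM of Drd1, Drd2 and Drd4 in all 6 libraries. The ratio of Drd4 to Drd2 was 6.34 ± 0.767 in control and 6.57 ± 0.268 in EFV pools (SD, n = 3 each, exact permutation test, p = 0.60), and that of Drd2 to Drd1 was 1.66 ± 0.244 and 1.54 ± 0.0866 (exact permutation test, p = 0.50), each with an adjusted p of 0.70 over the 7 ratios.

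Maoa, monoamine oxidase A of the mitochondrial outer membrane, lies on chromosome X (16619698 to 16687812, plus strand, 15 exons). It was at 4.04, 3.88 and 3.43 FPKM in control and 3.83, 3.23 and 3.84 FPKM in EFV pools. The groups overlapped, and the log2 fold change was -0.08 (SE 0.09, 95% interval -0.29 to 0.14, edgeR adjusted p = 0.999). Of the 9 genes, only Maoa had expected counts that were not whole in any of the 6 libraries (tolerance 0.005). Its row holds 1 transcript, so the counting program did not assign all of its reads wholly to this gene. The level of Maoa is therefore less certain than its count.

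**Figure D3:**
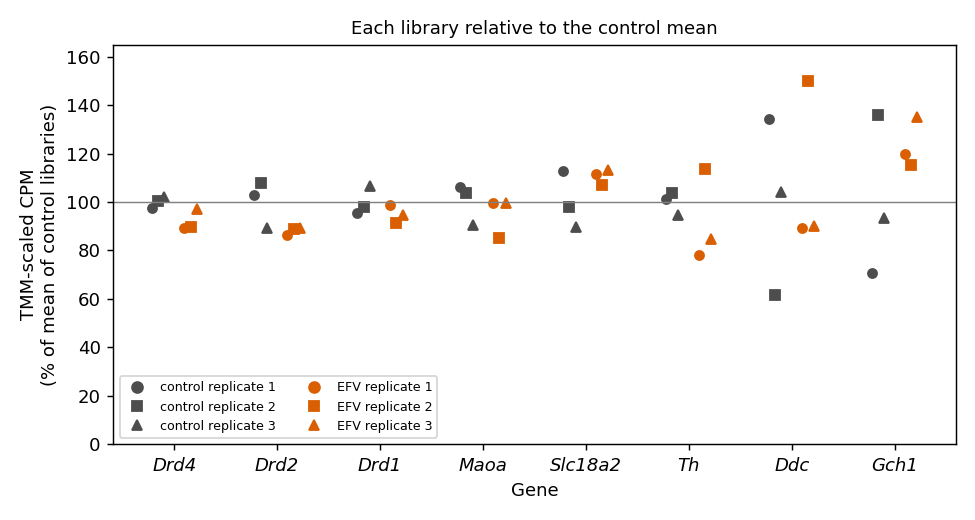
TMM-scaled CPM of the 8 tested dopamine genes in each library, as a percentage of the mean of the 3 control libraries (linear axis from 0), grey for control and orange for EFV pools. The EFV points of Drd4 all lie below its control points, those of Drd2 lie level with control replicate 3, and the points of Ddc and Gch1, with 9 to 23 counts a library, are the most scattered.

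Only Drd4 of the 9 genes had scaled CPM that did not overlap between the groups, beside 8.12% of all tested genes in either direction and 4.16% with EFV lower. In FPKM all 9 genes overlapped, beside 7.67% of all tested genes that did not. The calls for the receptor genes moved with the libraries in the fit. Of the 6 fits that each left out a library, Drd4 passed the limits of the study in 2, Drd2 in 1 and Slc18a2, with a higher level, in 1. Among all genes tested, 389 to 577 passed the limits in each of these fits. No gene of the 9 passed an adjusted p of 0.05 in any of them.

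**Figure D4:**
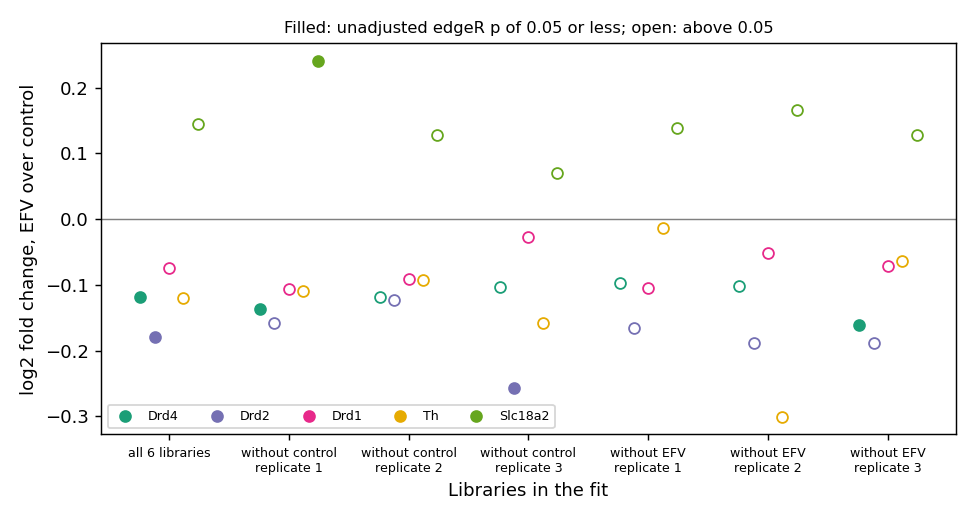
Log2 fold change, EFV over control (edgeR), of Drd4, Drd2, Drd1, Th and Slc18a2 fitted on all 6 libraries and on each set of 5. Filled points have an unadjusted p of 0.05 or less, and for each of the 5 genes the sign stays the same in all 7 fits while the filled points change from fit to fit.

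Other genes of the pathway and 17 clock genes, together 66 genes in 7 lists, were set beside these. Of them 54 were tested, 29 with a fitted level above control and 25 below it (median log2 fold change 0.00), and none had an unadjusted edgeR p of 0.05 or less. Scaled CPM did not overlap between the groups for 3 of the 54, Maob, Adcy5 and Per2, beside 8.12% of all tested genes. Of the remaining receptors of dopamine, Drd5 of the D1 class was at 1.09 ± 0.269 FPKM in control and 1.15 ± 0.257 in EFV pools (log2 fold change 0.06, SE 0.24), and Drd3 was listed in no library.

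Genes that make and recycle the tetrahydrobiopterin cofactor were all well above Gch1 in level. Qdpr, which regenerates the cofactor, was at 37.4 ± 3.46 FPKM in control and 37.9 ± 1.94 in EFV pools. Pts, the second enzyme of its synthesis, was at 20.4 ± 1.01 and 22.9 ± 1.33 (log2 fold change 0.16, SE 0.07). Gchfr, the feedback regulator of GTP cyclohydrolase, was at 6.55 ± 1.21 and 5.13 ± 0.869 (log2 fold change -0.37, SE 0.21). Of the 7 genes, 4 lay above control and 3 below (median log2 fold change 0.00).

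Among the genes of catecholamine breakdown and noradrenaline synthesis, 7 of 9 were tested, 2 above control and 5 below (median log2 fold change -0.04). Maob, the other monoamine oxidase, was at 1.88 ± 0.229 and 1.56 ± 0.113 FPKM (log2 fold change -0.29, SE 0.15). The ratio of Maoa to Maob was 2.02 ± 0.128 in control and 2.33 ± 0.199 in EFV pools, without overlap (exact permutation test, p = 0.10, the smallest that 3 against 3 libraries can give, adjusted p = 0.70 over 7 ratios). This ratio was not among the planned tests, and Maob by itself already had scaled CPM without overlap between the groups. Dbh, which turns dopamine into noradrenaline, was counted 3 to 6 times per library.

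Of the other monoamine carriers, Slc29a4, the plasma membrane monoamine transporter, was at 9.87 ± 0.924 FPKM in control and 10.1 ± 1.91 in EFV pools, far above Slc6a3. Slc6a2, the noradrenaline transporter, was at 0.113 ± 0.0586 and 0.117 ± 0.0404. Both fitted changes, 0.02 and 0.03, were small beside their SEs of 0.13 and 0.44.

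All 18 genes of receptor signalling were tested, 9 above control and 9 below (median log2 fold change 0.00). Gnas, the stimulatory G protein subunit, was at 439 ± 14.3 FPKM in control and 444 ± 22.5 in EFV pools, and Rgs9, a regulator of G protein signalling with a long-known role in photoreceptors, at 221 ± 10.3 and 225 ± 7.32. Those with the smallest p were Arrb1 (beta-arrestin 1, log2 fold change -0.08) and Adcy5 (adenylyl cyclase 5, -0.09).

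Of 8 transcription factors of dopaminergic neurons, 2 were tested. Nr4a2 was at 2.55 ± 0.157 and 2.45 ± 0.273 FPKM and En2 at 0.527 ± 0.146 and 0.510 ± 0.171, with log2 fold changes of -0.06 and -0.08. Foxa1 and Foxa2 were listed in no library.

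Retinal dopamine and Drd4 RNA are known to follow a daily rhythm, so 17 clock genes were listed too. All were tested, 11 above control and 6 below (median log2 fold change 0.04, range -0.08 to 0.14). Per2 had the smallest p (4.76 ± 0.217 FPKM in control and 5.29 ± 0.505 in EFV pools, log2 fold change 0.14, SE 0.07). Nr1d1 and Dbp, the most abundant of the list, had log2 fold changes of -0.01 and 0.06.

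**Figure D5:**
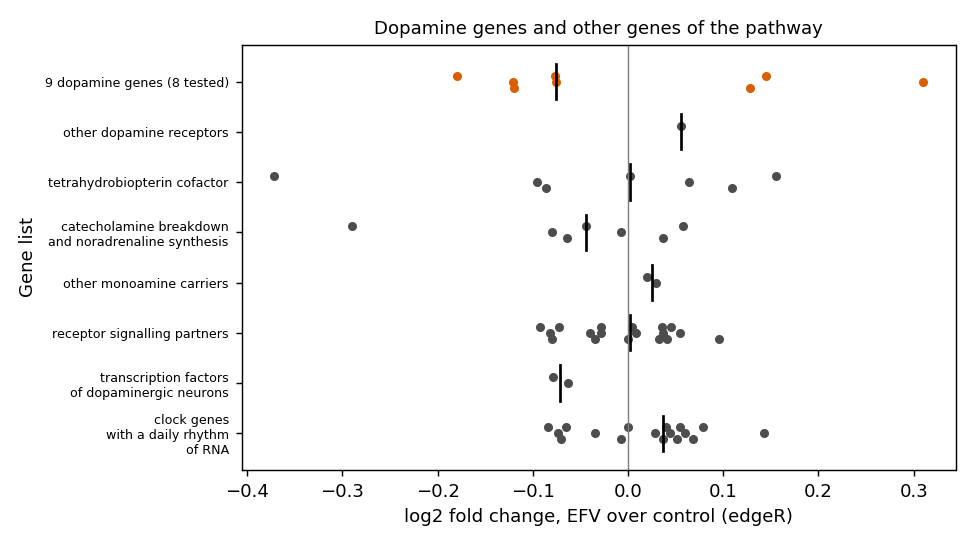
Log2 fold change, EFV over control (edgeR), of the 8 tested dopamine genes (orange) and of the 54 tested genes of 7 other lists (grey). The other lists hold genes of the pathway and clock genes. Each point is a gene, and a vertical line marks each list's median. The medians of the lists lie between -0.08 and 0.06, and no list lies wholly away from 0 except those with 1 or 2 tested genes.

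Among the 12294 genes with an Entrez identifier and a mean of at least 1 FPKM, those whose scaled log2 CPM was most like Th over the 6 libraries were H2-T23 (Pearson r = 0.99), Plagl1 (r = 0.98) and Dnajc5 (r = 0.98). Those most like Drd4 were Rnase4, Tmem29 and Eci2, each with r = 0.98. With 6 libraries and this many genes compared, such values describe these libraries and carry no test. Among Th, Slc18a2 and Drd2, whose counts are not sparse, r was -0.27 for Th with Slc18a2, 0.49 for Th with Drd2 and -0.11 for Slc18a2 with Drd2.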

How the data were processed

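RNA of 3 control and 3 EFV pools was sequenced by BGI. Per the submitters' processing notes, the tools were HISAT2 2.0.4, Bowtie2 2.2.5 and RSEM 1.2.12, with the build mm10. The authors made the deposited expected counts per gene with RSEM, without normalization, and the deposited FPKM by dividing these by transcript length and library total. A gene absent from a library was taken as 0, and the smallest FPKM listed is 0.01. Read filters, strandedness and annotation release were not given in the sources used here.

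Here expected counts were rounded to whole numbers. Of the genes, 15537 reached 10 counts in 3 or more of the 6 libraries and entered the edgeR 4.0.16 quasi-likelihood test in R 4.3.3 (TMM scaling, group as the only term, two-sided, Benjamini-Hochberg adjustment over all tested genes). The limits of the study (unadjusted p of 0.05 and its fold change) were applied to the p of each model, whereas the study based its threshold on the Poisson distribution. The study's own list of changed genes is shorter than the set called here by each model at these limits, so its calling was not reproduced. Ratios and single genes were also tested by exact permutation over libraries, which was not among the planned tests. Alternatives were other scalings and filters, DESeq2 1.42.0, limma 3.58.1 on log2(FPKM + 0.1) and log2(FPKM + 1), a Poisson model, a replicate block, covariates of cell type markers, and leaving out each library. The scripts were tested on simulated data. All pairs of libraries differed by more than counting error (chi-square over its degrees of freedom 5.51 or more).

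The 9 genes and all lists were chosen with earlier results of these data known. Genes named besides the 9 were, in each list, the 2 of highest mean FPKM and the 2 of smallest p, and the 3 most correlated with Th and with Drd4, from which a selection is given, and 2 list genes are not reported here by name. Positions and promoter sequences come from RefSeq and GENCODE annotation of GRCm38. P-values measure the spread between pools, except those of the Poisson model, which take only counting error into account.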

Additional observations from a re-analysis of the deposited data

How the results depend on the processing

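Of the 8 tested dopamine genes, none passed an adjusted p of 0.05 with edgeR, DESeq2 or limma under any alternative, and the Poisson model, which takes no spread between pools into account, called 2 (Drd4, adjusted p = 3.94e-09, and Drd2, adjusted p = 7.82e-04). The 2 genes past the limits of the study became 0 with scaling by total counts only, 1 with DESeq2, 0 with limma at either pseudocount, 1 with the amacrine marker covariate and 0 with the RPE marker covariate. Leaving out a library gave 0 to 2 of the 8 genes. The fit with 2, without control replicate 1, called Drd4 lower and Slc18a2 higher and did not call Drd2. For all genes, DESeq2 called 11 and the Poisson model 2042 after adjustment, and 269 and 2305 at the limits of the study against 468 with edgeR, and leaving out a library gave 0 to 1 and 389 to 577. For the other pathway genes and the clock genes together, the count at the limits of the study was 0 in the main fit. It rose to 1 with total counts only, limma at either pseudocount, the amacrine marker covariate or the rod marker covariate. The RPE marker covariate gave 2 and the Poisson model 4, and the Poisson model called 13 after adjustment. Fits without a library gave 1 to 3 at the limits and 0 to 0 after adjustment. The sign of Ddc turned with the RPE marker covariate (-0.33) and in some fits without a library, whose log2 fold changes ran from -0.16 to 0.40. No other sign turned among the 8 genes, and the causes were not tested.

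The replicate numbers of the libraries mark no shared animal, and libraries with the same number correlated in their deviations at 0.126, 0.0798 and 0.10, each best with its own number. With the number as a replicate block, 2 of the 8 genes passed the limits of the study, as without it: Drd4 at a log2 fold change of -0.12 and Drd2 at -0.18. Of the 15537 tested genes, 514 passed these limits with the block and 468 without it. Without a filter Slc6a3 could be fitted, at a log2 fold change of -0.19 (SE 0.79). At 1 to 23 counts per library, depth limits Slc6a3, Ddc and Gch1.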
